A study of Homo sapiens with 6 samples.

Results

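Nuclear genes of mitochondrial DNA (mtDNA) transcription, mtDNA copying and mitochondrial RNA stability were followed in CD38-deficient myeloma cells: POLRMT, TFAM, TFB2M, TFB1M, TEFM, POLG, TWNK, SSBP1, LRPPRC and SLIRP. They were chosen by symbol for their known function and are 10 of the 60671 genes in the table of raw read counts, and all 10 passed the filter on low counts. The measurements are RNA-seq libraries of MM.1S, a human multiple myeloma cell line, with 3 libraries of CD38 KO cells, a clone made with CRISPR/Cas9, and 3 of WT cells. Cells of both groups carried GFP and click beetle red luciferase from a lentivirus, and both were sorted live, the CD38 KO cells as CD38-negative and the WT cells as CD38-positive. The CD38 KO libraries all come from 1 clone, and nothing says that the replicates were separate cultures, so the p-values measure only the spread between these samples. The comparison addresses how the transcriptome of the knockout differs from that of the parental line.

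Human mtDNA is transcribed from both strands into long transcripts that are cut into ribosomal, transfer and messenger RNAs. POLRMT is the RNA polymerase, TFAM bends and packages the DNA at the promoters, TFB2M opens the promoter, and TEFM keeps the polymerase on its template. POLG, TWNK and SSBP1 are the polymerase, helicase and single-stranded DNA binding protein of mtDNA replication, while LRPPRC and SLIRP form a complex that stabilizes mitochondrial messenger RNAs and supports their polyadenylation. TFB1M, a relative of TFB2M, methylates the small mitochondrial ribosomal RNA.

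The promoter windows of the 3 proteins that start mtDNA transcription, and of POLG, which had the largest change among the 10, are shown because these genes moved in different directions. They are from RefSeq on GRCh38.p14, run 5′ to 3′ on the strand of the gene, and span 250 bases before to 50 after the transcription start. Capitals mark every match to GCATGCG or its reverse complement CGCATGC, the core letters of the motif of the activator NRF1, which overlap each other in a full palindrome, and to CCGGAAG or its reverse complement CTTCCGG, letters of the ETS motif that GABPA binds. The windows lie at chr10:58385160-58385459 on the plus strand for TFAM, and on the minus strand at chr1:246566212-246566511 for TFB2M, chr19:633488-633787 for POLRMT and chr15:89334775-89335074 for POLG.
TFAM: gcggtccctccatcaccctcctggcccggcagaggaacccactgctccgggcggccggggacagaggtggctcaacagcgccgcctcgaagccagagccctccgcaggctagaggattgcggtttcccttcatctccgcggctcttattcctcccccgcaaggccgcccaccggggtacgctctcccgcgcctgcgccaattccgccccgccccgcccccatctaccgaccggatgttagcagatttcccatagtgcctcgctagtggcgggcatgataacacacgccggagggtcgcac
TFB2M: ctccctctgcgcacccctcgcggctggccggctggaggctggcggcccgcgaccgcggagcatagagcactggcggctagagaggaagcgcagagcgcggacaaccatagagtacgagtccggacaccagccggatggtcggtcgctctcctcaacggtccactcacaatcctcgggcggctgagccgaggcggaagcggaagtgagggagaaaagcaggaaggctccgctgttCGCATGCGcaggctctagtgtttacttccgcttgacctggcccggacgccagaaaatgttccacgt
POLRMT: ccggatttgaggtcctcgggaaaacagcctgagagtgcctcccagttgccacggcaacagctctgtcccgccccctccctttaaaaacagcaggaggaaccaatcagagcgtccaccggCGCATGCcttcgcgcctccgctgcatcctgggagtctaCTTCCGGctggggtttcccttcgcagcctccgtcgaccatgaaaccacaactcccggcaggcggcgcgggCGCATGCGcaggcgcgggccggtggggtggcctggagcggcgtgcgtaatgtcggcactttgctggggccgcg
POLG: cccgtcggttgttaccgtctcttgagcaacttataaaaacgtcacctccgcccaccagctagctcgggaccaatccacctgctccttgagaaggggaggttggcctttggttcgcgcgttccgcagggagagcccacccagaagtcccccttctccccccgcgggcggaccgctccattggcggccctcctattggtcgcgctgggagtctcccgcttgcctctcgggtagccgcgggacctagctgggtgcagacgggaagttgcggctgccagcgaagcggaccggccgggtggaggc
The NRF1 letters stood in the TFB2M window, first base at -16 from the start, and in the POLRMT window at -131 and at -23. The POLRMT window also held the ETS letters at -93. Neither set of letters occurred in the TFAM or POLG window, which says only that these letters are not in it. Windows were found for 9 of the 10 genes, all but TWNK. NRF1 letters were in those of TFB2M, TFB1M and POLRMT, against 3.91% of all 35116 windows of the same length. ETS letters were in those of TFB1M, POLRMT, TEFM, SSBP1 and SLIRP, against 10.3% of all windows. Other forms of these motifs were not searched for in any window. These are genes with a match in any of their windows, 12 in all, while the percentages count single windows. By window, 3 of the 12 held NRF1 letters and 8 held ETS letters. The overlapping windows of SSBP1 share 1 match, as do those of SLIRP. The 3 genes with NRF1 letters went apart in the comparison: POLRMT rose, TFB2M fell and TFB1M did not pass the test.

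Of the 10 factors, 7 differed between CD38 KO and WT cells at an adjusted p under 0.05, where 44.4% of the 20120 genes tested did. TFAM, TFB2M, TEFM, SSBP1 and LRPPRC were lower in CD38 KO cells, and POLRMT and POLG were higher. TFB1M, TWNK and SLIRP did not pass the test. Among all genes tested 21.6% were lower and 22.8% were higher. With library size alone as the scaling, which leaves 3632 genes higher and 5570 lower and shifts the median of all genes to -0.08, 1 factor, POLG, was higher and 6 were lower. Without WT replicate 2, 4 of the 10 factors passed the test, where 8190 of 20843 genes did. The 20120 genes include noncoding genes and genes of low counts. With protein-coding genes only, 7630 of 13180 genes and 7 factors passed. With a filter at 1 CPM in 3 libraries, 8053 of 13861 genes and 6 factors passed. Both are larger shares of genes than 44.4%, which is thus a low background for the factors and for the related lists below. The changes were small: the CD38 KO level lay between 80.8% of the WT level for TEFM and 132% for POLG, and the log2 fold change had a median size of 0.20 over the 10 factors and 0.32 over all genes tested. The median log2 fold change of the factors was -0.17, that of all genes tested was 0.00021. The test was edgeR's quasi-likelihood test with Benjamini-Hochberg adjustment over all genes tested, and levels are given as CPM, the count per 1e6 counts of a library after scaling with TMM factors. In these bulk samples fewer cells that express a gene and less RNA per cell cannot be told apart.

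**Figure D1:**
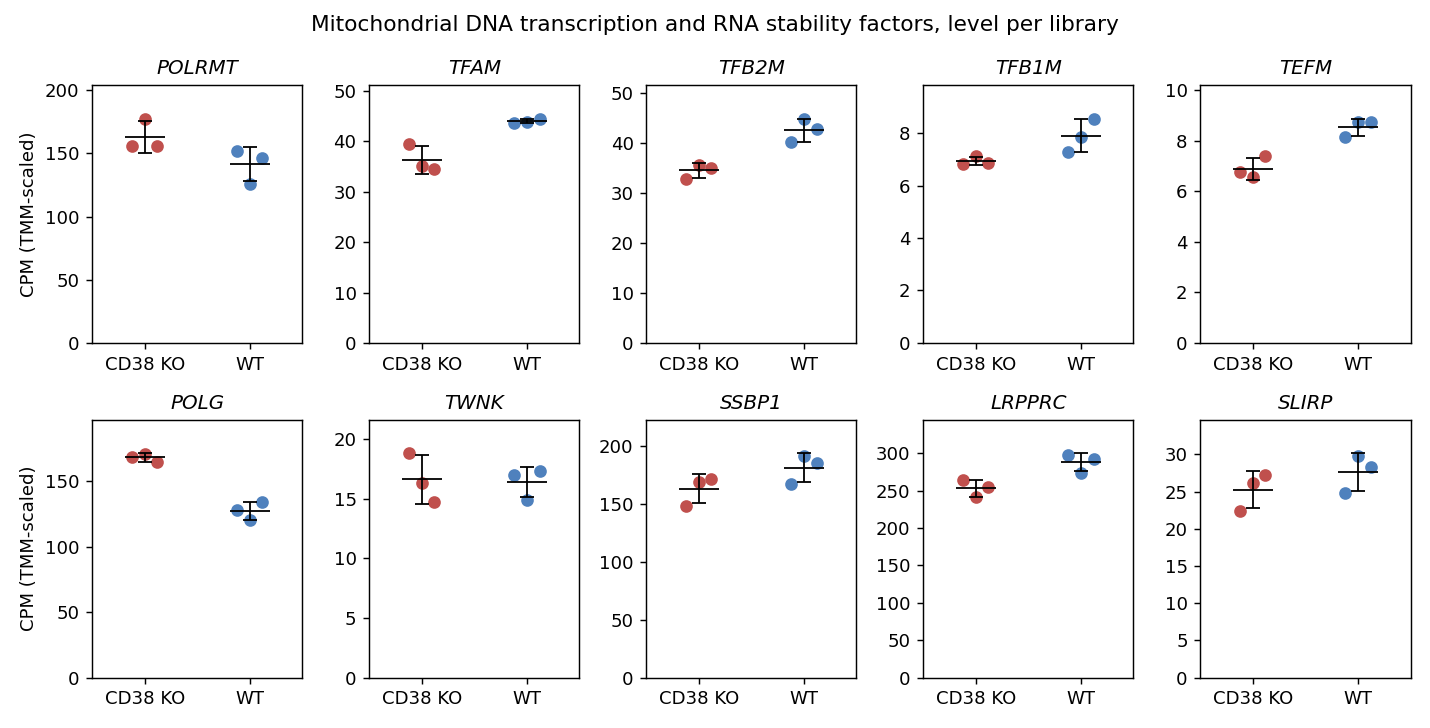
Level of each factor in every library, in CPM from 0, with CD38 KO libraries at the left and WT libraries at the right of each panel; points are libraries, bars the mean ± SD of 3. The groups are apart for POLG, TFAM, TFB2M, TEFM and LRPPRC and, by a narrow gap, for POLRMT and TFB1M. They share levels for TWNK, SSBP1 and SLIRP.

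The polymerase and its initiation partners moved in opposite directions. POLRMT (ENSG00000099821; chromosome 19, 617224 to 633604, GRCh38 in GENCODE 29) had 156, 178 and 156 CPM in the CD38 KO libraries, against 152, 126 and 146 CPM in the WT libraries. The groups did not overlap, but the highest WT library came close to the lowest CD38 KO libraries. The log2 fold change was 0.21 ± 0.07 (SE; edgeR adjusted p = 0.0265). That call was lost without CD38 KO replicate 2 (edgeR adjusted p = 0.0760, log2 fold change 0.14), which held the highest value, without WT replicate 2 (0.0736, 0.13), which held the lowest, and with library size alone as the scaling (0.135, 0.12). A retrocopy, POLRMTP1 on chromosome 17, had 8.10 ± 0.698 CPM in CD38 KO cells and 7.16 ± 0.734 CPM in WT cells (SD, n = 3 each; edgeR adjusted p = 0.244), and reads may be shared between the copies.

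TFAM (ENSG00000108064; chromosome 10, 58385022 to 58399221) had 39.5, 35.1 and 34.5 CPM in the CD38 KO libraries, against 43.7, 43.9 and 44.5 CPM in the WT libraries. Every CD38 KO library lay below every WT library, and the WT libraries were within 1 CPM of each other. The log2 fold change was -0.28 ± 0.06 (SE; edgeR adjusted p = 0.000975). The retrocopies of TFAM took almost no reads, with at most 7 counts of TFAMP1 and at most 1 of TFAMP2 in a library.

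TFB2M (ENSG00000162851; chromosome 1, 246540560 to 246566324) had 32.9, 35.7 and 35.0 CPM in the CD38 KO libraries, against 40.2, 44.8 and 42.7 CPM in the WT libraries. The groups were apart, and the log2 fold change was -0.30 ± 0.06 (SE) with an edgeR adjusted p of 0.000382, close to that of TFAM. CNST, whose start lies 120 bases from that of TFB2M on the opposite strand, also fell, to 64.5 CPM in CD38 KO cells, against 91.9 CPM in WT cells (log2 fold change -0.51 ± 0.05, SE; edgeR adjusted p = 9.83e-09). Within a library, the ratio of POLRMT counts to TFAM counts needs no scaling; this ratio and the next were chosen after the values of these genes were seen. It was 3.95, 5.06 and 4.52 in the CD38 KO libraries, against 3.47, 2.87 and 3.29 in the WT libraries (two-sided exact permutation p = 0.1). The ratio of POLRMT to TFB2M counts was 4.75, 4.98 and 4.45 in the CD38 KO libraries, against 3.78, 2.81 and 3.43 in the WT libraries (two-sided exact permutation p = 0.1). Both ratios separated the groups, and 0.1 is the smallest p that 3 against 3 can give. POLRMT was higher, and TFAM and TFB2M lower, in every CD38 KO library than in every WT library. The ratios therefore had to separate, and their p adds nothing to the levels of the genes.

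TEFM (ENSG00000172171; chromosome 17, 30897336 to 30906820), the elongation factor, was the scarcest factor per exon length. It had 6.74, 6.55 and 7.38 CPM in the CD38 KO libraries, against 8.13, 8.72 and 8.72 CPM in the WT libraries. The groups did not overlap, and the log2 fold change was -0.31 ± 0.11 (SE; edgeR adjusted p = 0.0260). The call was lost without CD38 KO replicate 2 (edgeR adjusted p = 0.0711), WT replicate 2 (0.0768) or WT replicate 3 (0.0873), with log2 fold changes of -0.27, -0.29 and -0.29. ADAP2 on the opposite strand overlaps 9.34% of the annotated exon bases of TEFM and fell as well, to 1.38 CPM in CD38 KO cells, against 2.83 CPM in WT cells (edgeR adjusted p = 0.000396). Its part in the TEFM count was not tested.

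TFB1M (ENSG00000029639; chromosome 6, 155257509 to 155314493), the ribosomal RNA methyltransferase, had 6.82, 7.13 and 6.86 CPM in the CD38 KO libraries, against 7.30, 7.86 and 8.56 CPM in the WT libraries. The CD38 KO libraries all lay below the WT libraries, by a narrow gap. The log2 fold change of -0.19 ± 0.11 (SE) did not pass the test (edgeR adjusted p = 0.186). TIAM2, which overlaps 7.86% of the annotated exon bases of TFB1M, was at 0.274 CPM in CD38 KO cells and 0.256 CPM in WT cells (edgeR adjusted p = 0.894). In all, 7 of the 10 factors had groups with no shared range of CPM, 5 lower and 2 higher in CD38 KO cells, where 52.5% of all genes tested had none, 25.6% lower and 26.9% higher. These 7 include TFB1M and leave out SSBP1, which passed the test with overlapping libraries.

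**Figure D2:**
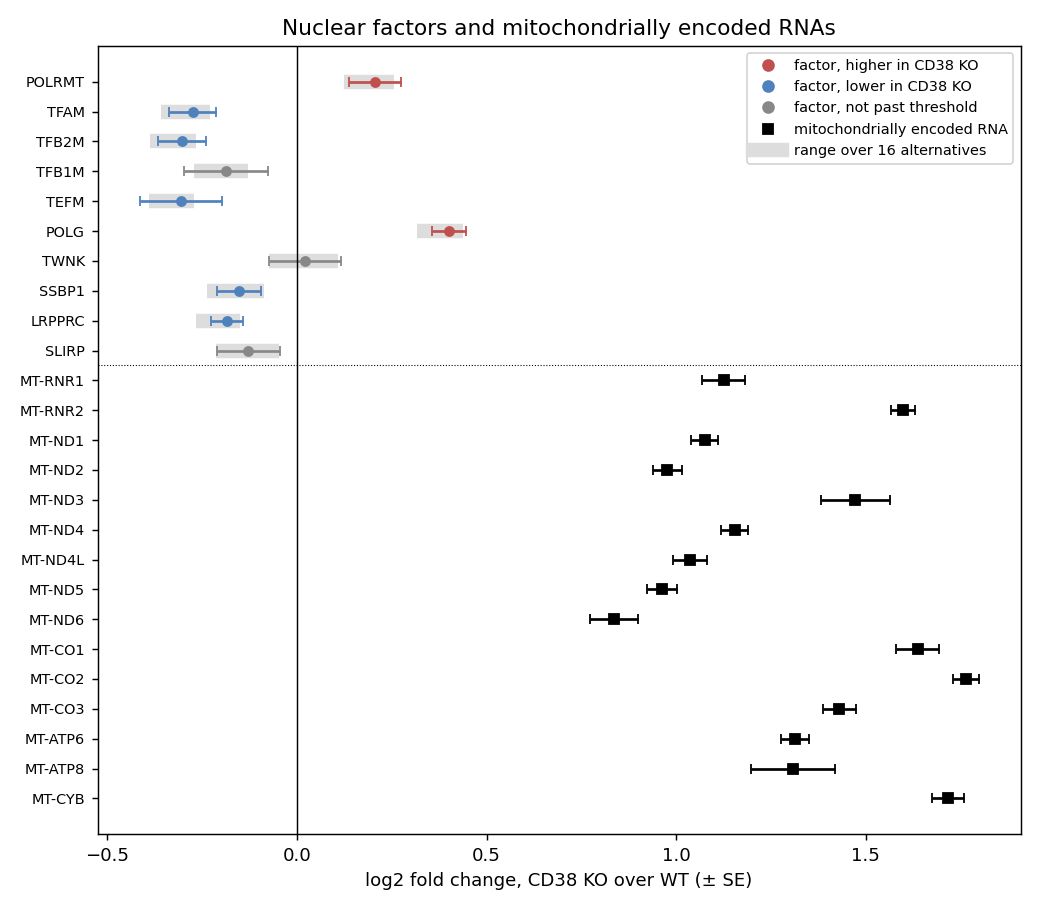
Log2 fold change of CD38 KO over WT (x axis) with SE for the 10 factors (circles) and the 15 mitochondrially encoded ribosomal and messenger RNAs (squares); grey bars, drawn for the factors alone, give their range over the 16 alternative fits. The factors lie between -0.31 and 0.40, and every mitochondrially encoded RNA lies at 0.84 or above.

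Of the replication proteins, POLG rose, SSBP1 fell and TWNK was near 0. POLG (ENSG00000140521; chromosome 15, 89305198 to 89334861) had 168.5, 171 and 165 CPM in the CD38 KO libraries, against 128, 121 and 134 CPM in the WT libraries. The groups were far apart, and the log2 fold change, 0.40 ± 0.04 (SE) with an edgeR adjusted p of 2.16e-07, was the largest in size among the 10. FANCI, a DNA repair gene on the opposite strand, overlaps 7.66% of the annotated exon bases of POLG and rose too, to 134 CPM in CD38 KO cells, against 89.5 CPM in WT cells (log2 fold change 0.58; edgeR adjusted p = 7.33e-10). Its part in the POLG count was not tested. NGRN, also on chromosome 15 (90265659 to 90278141), rose by 0.45 on the log2 scale. Of the 662 genes tested on that chromosome 55.9% passed, against 44.4% of all genes tested, with a median log2 fold change of -0.04. A regional or copy-number difference of the clone was not tested.

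POLG2, the accessory subunit that clamps POLG to DNA, rose by 0.44 ± 0.09 on the log2 scale (SE; edgeR adjusted p = 0.000504), to 14.0 ± 0.833 CPM in CD38 KO cells, against 10.3 ± 0.473 CPM in WT cells (SD, n = 3 each). The ratio of POLG to POLG2 counts was 11.7, 11.8 and 12.7 in the CD38 KO libraries, against 12.5, 11.1 and 13.5 in the WT libraries (two-sided exact permutation p = 0.7). The ratios of the groups overlapped.

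TWNK (ENSG00000107815; chromosome 10, 100987367 to 100994401) had 18.8, 16.3 and 14.7 CPM in the CD38 KO libraries, against 17.0, 14.9 and 17.3 CPM in the WT libraries. The libraries of the groups were interleaved, and the log2 fold change was 0.02 ± 0.09 (SE; edgeR adjusted p = 0.884). Its sign turned with library size alone (-0.06), without CD38 KO replicate 1 (-0.07) and without WT replicate 2 (-0.04). MRPL43, a mitochondrial ribosomal protein gene, starts 148 bases away on the opposite strand and overlaps 3.6% of the annotated exon bases of TWNK. It was at 42.7 CPM in CD38 KO cells and 41.0 CPM in WT cells. MRPL43 did not pass the test either, with a log2 fold change of 0.06 ± 0.06 (SE) and an edgeR adjusted p of 0.482. Its part in the TWNK count was not tested.

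SSBP1 (ENSG00000106028; chromosome 7, 141738321 to 141787922) had 148, 169 and 171 CPM in the CD38 KO libraries, against 167, 191 and 185 CPM in the WT libraries. The lowest WT library lay below 2 of the CD38 KO libraries, and replicate 1 was the lowest of its group in both. The log2 fold change was -0.15 ± 0.06 (SE), just past the threshold (edgeR adjusted p = 0.0444). TAS2R4, within the span of SSBP1 but sharing no exon bases with it, was at 0.167 CPM in CD38 KO cells and 0.151 CPM in WT cells (edgeR adjusted p = 0.906). The SSBP1 call was lost in 5 of 16 alternatives. They were a filter at 1 CPM (edgeR adjusted p = 0.0603), limma-voom (0.0531) and the fits without CD38 KO replicate 1 (edgeR adjusted p = 0.202, log2 fold change -0.09), WT replicate 2 (0.171) or WT replicate 3 (0.134).

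The RNA-stabilizing pair had lower means in CD38 KO cells, and LRPPRC alone passed the test. LRPPRC (ENSG00000138095; chromosome 2, 43886508 to 43996005) had 264, 241 and 254 CPM in the CD38 KO libraries, against 297, 274 and 292 CPM in the WT libraries. Each CD38 KO library lay below each WT library, and the log2 fold change was -0.18 ± 0.04 (SE; edgeR adjusted p = 0.00139). SLIRP (ENSG00000119705; chromosome 14, 77708071 to 77761104) had 22.5, 26.1 and 27.2 CPM in the CD38 KO libraries, against 24.8, 29.75 and 28.3 CPM in the WT libraries. Its groups overlapped, and the log2 fold change of -0.13 ± 0.08 (SE) did not pass the test (edgeR adjusted p = 0.230). It passed in 1 of 16 alternatives, library size alone (edgeR adjusted p = 0.0478, log2 fold change -0.21). Of its neighbours, ALKBH1 starts 51 bases away and SNW1 overlaps 4.49% of the annotated exon bases of SLIRP. Neither passed the test, with log2 fold changes of -0.03 and 0.0022 (edgeR adjusted p = 0.854 and 0.982). Like SSBP1, SLIRP was lowest in replicate 1 within each group, where LRPPRC was highest.

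LRPPRC and SLIRP bind as a complex, so their ratio was followed within each library. There were 11.8, 9.24 and 9.36 LRPPRC counts per SLIRP count in the CD38 KO libraries, against 12.0, 9.21 and 10.3 in the WT libraries. The means were 10.1 ± 1.42 in CD38 KO cells and 10.5 ± 1.39 in WT cells (SD, n = 3 each), a difference of -0.389 (two-sided exact permutation p = 0.7). The sign of that difference turned without WT replicate 1 (0.346) and without CD38 KO replicate 2 (0.0486). Benjamini-Hochberg adjustment over the 4 ratios gave exact permutation p-values of 0.2 for both POLRMT ratios and 0.7 for the other 2. The outcome for the POLRMT ratios was fixed by the genes chosen.

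**Figure D3:**
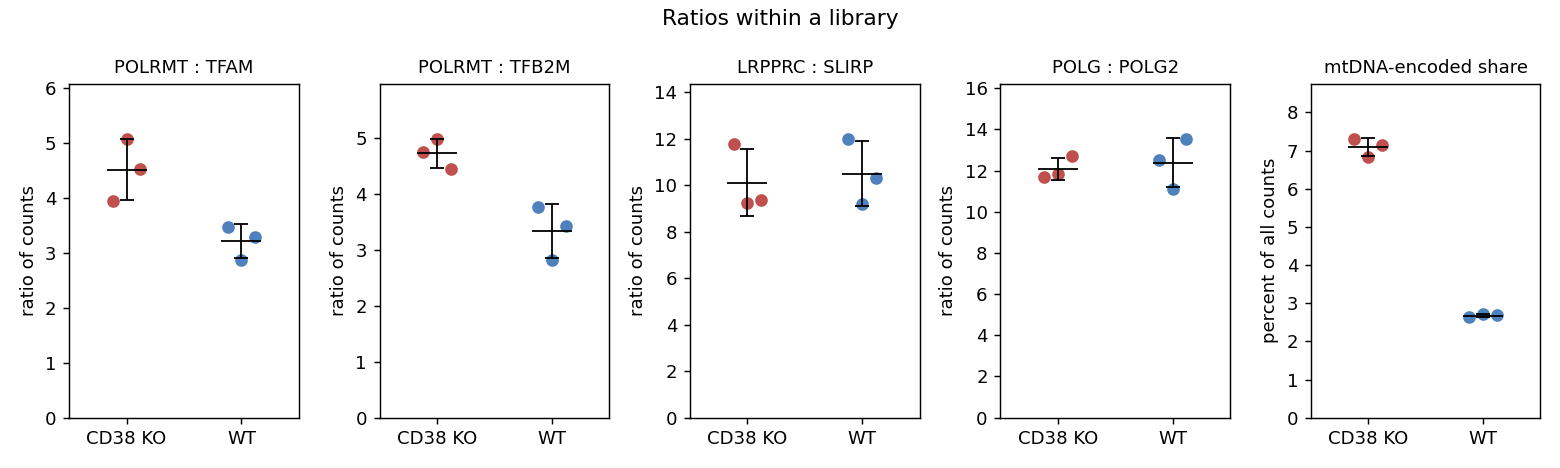
Ratios of counts between factors within a library and the share of all counts from 15 mitochondrially encoded RNAs (percent), with CD38 KO libraries at the left and WT libraries at the right; points are libraries, bars the mean ± SD of 3. POLRMT:TFAM, POLRMT:TFB2M and the mitochondrial share separate the groups, LRPPRC:SLIRP and POLG:POLG2 do not. Separation of the POLRMT ratios was fixed by the genes chosen.

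All 15 ribosomal and messenger RNAs encoded by mtDNA rose in CD38 KO cells, where 22.8% of all genes tested were higher. The 15 mitochondrially encoded RNAs took 7.30%, 6.83% and 7.16% of all counts in the CD38 KO libraries, against 2.63%, 2.71% and 2.69% in the WT libraries (two-sided exact permutation p = 0.1). Log2 fold changes ran between 0.96 and 1.76 for the 12 messenger RNAs read from the heavy strand. MT-ND6, the messenger RNA of the light strand, had the lowest, at 0.84 ± 0.06 (SE; edgeR adjusted p = 1.21e-07). The ribosomal RNAs MT-RNR1 and MT-RNR2 had 1.12 and 1.60. None of the 10 factors rose by as much: POLG, at 0.40, came nearest. Reads from nuclear copies of mtDNA may be counted with these RNAs, and the amount of mtDNA was not measured here. The strand mode of the counts is not stated, so the MT-ND6 count may include RNA of the opposite strand. Whether the counts of these RNAs depend on their poly(A) tails, through the way cDNA was made, was not tested.

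Per exon length, SSBP1 was the most abundant factor in both groups, at 32.7 ± 2.53 CPM per kilobase of annotated exon in CD38 KO cells and 36.3 ± 2.50 in WT cells (SD, n = 3 each). In CD38 KO cells it was followed by POLRMT (31.8), POLG (28.1), LRPPRC (25.9), TFB2M (18.7), SLIRP (9.60 ± 0.943), TFAM (6.49), TWNK (4.02), TFB1M (2.54) and TEFM (2.14), all in CPM per kilobase. The library ranges of neighbours in that order overlapped only for SSBP1 and POLRMT. In WT cells the order after SSBP1 was LRPPRC (29.5), POLRMT (27.6), TFB2M (23.0), POLG (21.3), SLIRP (10.5), TFAM (7.85), TWNK (3.96), TFB1M (2.89) and TEFM (2.65). There the ranges overlapped for LRPPRC and POLRMT, TFB2M and POLG, and TFB1M and TEFM. Exon length is the union over all annotated transcripts, so a gene with unused exons is set too low.

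**Figure D4:**
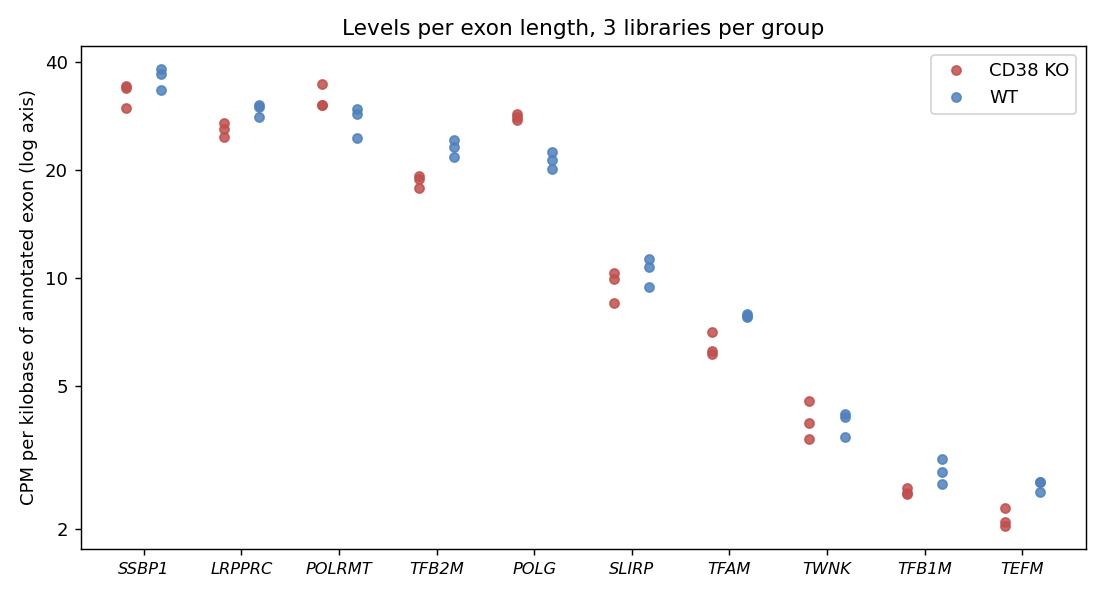
Level of each factor per kilobase of annotated exon, in CPM per kilobase on a log axis, with the 3 CD38 KO libraries left of the 3 WT libraries. SSBP1, LRPPRC, POLRMT, TFB2M and POLG form an upper range with means of 18.7 or more, and TFAM, TWNK, TFB1M and TEFM have means of 7.85 or less.

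Other genes of mtDNA upkeep and expression moved both ways. Of 19 genes of mtDNA replication and the nucleoid, 9 rose, 1 fell and 9 did not pass the test, with a median log2 fold change of 0.06. That is 52.6% changed, 47.4% higher and 5.26% lower, against 44.4%, 22.8% and 21.6% of all genes tested. With library size alone 8 were higher and 2 lower. The helicase and nuclease DNA2 rose by 0.80 ± 0.12 on the log2 scale (SE; edgeR adjusted p = 1.59e-05), the pyrimidine nucleotide carrier SLC25A36 by 0.48, the topoisomerase TOP3A by 0.38 and LONP1, the protease that degrades TFAM, by 0.23. DNA2 and TOP3A also act on nuclear DNA. LONP1 was at 808 ± 26.4 CPM in CD38 KO cells and 687 ± 45.3 CPM in WT cells (SD, n = 3 each; edgeR adjusted p = 0.000181). The inner membrane protein MPV17 fell by 0.27 on the log2 scale. The mitochondrial topoisomerase TOP1MT and the exonuclease MGME1 had log2 fold changes of 0.02 and 0.0022 and did not pass the test (edgeR adjusted p = 0.843 and 0.987).

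Of the 4 MTERF proteins, which bind mtDNA or mitochondrial ribosomal RNA, MTERF1 fell and MTERF3 rose. That is 50% changed, near the 44.4% of all genes tested. MTERF1, which binds mtDNA downstream of the ribosomal RNA genes, had 8.10, 5.38 and 5.25 CPM in the CD38 KO libraries, against 9.50, 10.04 and 9.49 CPM in the WT libraries. CD38 KO replicate 1 lay nearer to the WT libraries than the other CD38 KO libraries did. The log2 fold change was -0.63 ± 0.14 (SE; edgeR adjusted p = 0.00119). The log2 fold change was 0.22 ± 0.09 for MTERF3 (SE; edgeR adjusted p = 0.0433), 0.24 for MTERF2 (0.125) and -0.22 for MTERF4 (0.0664). The MTERF3 call was lost in 9 of 16 alternatives, among them the fits without CD38 KO replicate 1 (edgeR adjusted p = 0.0924), CD38 KO replicate 3 (0.0791), WT replicate 1 (0.177) or WT replicate 3 (0.120). The MTERF1 call was kept in all 16.

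Of 21 genes of mitochondrial RNA processing and turnover, 5 rose, 7 fell and 9 did not pass the test, with a median log2 fold change of 0.06. That is 57.1% changed, against 44.4% of all genes tested. With library size alone 2 were higher and 10 lower. PTCD3, a protein of the small mitochondrial ribosomal subunit, rose to 247 ± 6.26 CPM in CD38 KO cells, against 183 ± 4.82 CPM in WT cells (SD, n = 3 each; log2 fold change 0.43, edgeR adjusted p = 1.29e-08). FASTK, which acts on MT-ND6 RNA, fell to 193 ± 3.44 CPM in CD38 KO cells, against 259 ± 12.3 CPM in WT cells (SD, n = 3 each; log2 fold change -0.42, edgeR adjusted p = 4.1e-08). FASTKD2, which is needed for mitochondrial ribosome assembly, and ANGEL2 fell by 0.36 and 0.38 on the log2 scale. The members of the RNA-degrading complex went apart: the helicase SUPV3L1 rose by 0.19 ± 0.04 (SE; edgeR adjusted p = 0.00114), and its partner, the exoribonuclease PNPT1, fell by 0.13 ± 0.04 on the log2 scale (SE; edgeR adjusted p = 0.0218). The PNPT1 call was lost without CD38 KO replicate 3 (edgeR adjusted p = 0.0773) and without WT replicate 3 (0.108). Without CD38 KO replicate 3, 7 of the 21 genes passed, where 8010 of 20911 genes did. The poly(A) polymerase MTPAP and the RNA-binding GRSF1 had log2 fold changes of 0.06 and -0.02 and did not pass the test (edgeR adjusted p = 0.529 and 0.717).

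Of 23 genes of mitochondrial ribosomal and transfer RNA modification and assembly, 4 rose, 5 fell and 14 did not pass the test, which is 39.1% changed, against 44.4% of all genes tested. With library size alone 3 were higher and 8 lower. NGRN and the pseudouridine synthase family member RPUSD3 rose by 0.45 and 0.30, and RPUSD4 and the tRNA guanine transglycosylase subunit QTRT1 had log2 fold changes of -0.31 and -0.27. Of 11 nuclear regulators, 5 rose, 3 fell and 3 did not pass the test, which is 72.7% changed, against 44.4% of all genes tested. The coactivator PPARGC1A (PGC-1α), a driver of mitochondrial biogenesis, rose to 24.65, 21.4 and 23.7 CPM in the CD38 KO libraries, against 16.02, 13.8 and 15.97 CPM in the WT libraries (log2 fold change 0.61 ± 0.08, SE; edgeR adjusted p = 4.39e-06). GABPA, which binds the ETS motif, rose by 0.51 ± 0.08 (SE; edgeR adjusted p = 1.18e-05). GABPB1 and PPRC1, also listed, fell, with log2 fold changes of -0.22 and -0.14 (edgeR adjusted p = 0.00591 and 0.0204). The libraries of the groups overlapped for PPRC1. GABPB2 and PPARGC1B did not pass the test (edgeR adjusted p = 0.341 and 0.952). NRF1 was at 23.5 ± 0.708 CPM in CD38 KO cells and 24.4 ± 0.365 CPM in WT cells (SD, n = 3 each; edgeR adjusted p = 0.570). CREB1 rose by 0.26, and MYC fell by 0.25 on the log2 scale.

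**Figure D5:**
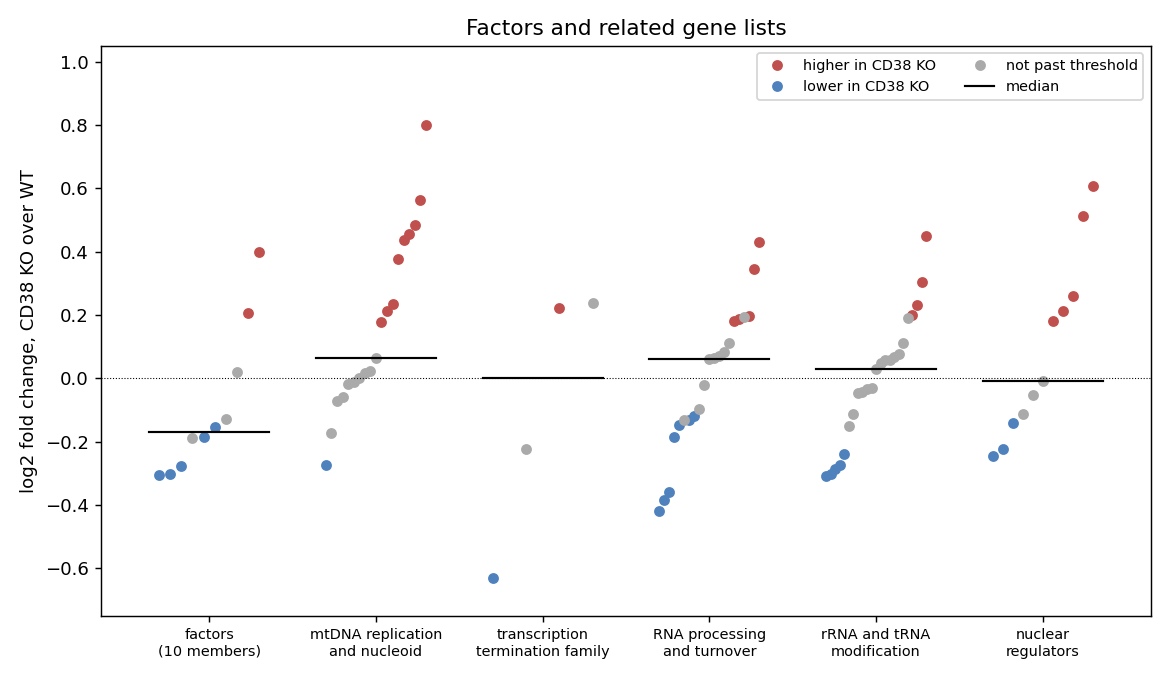
Log2 fold change of CD38 KO over WT (y axis) for the 10 factors and the genes of 5 related lists, sorted within a list; colours give the call at an adjusted p under 0.05 and black lines the medians. The median of the factors is -0.17, and the medians of the related lists lie between -0.01 and 0.06.

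Counts of CD38 were 51, 80 and 48 in the clone and 3148, 2678 and 2545 in WT cells, in the direction of the labels. Totals were 61515519 to 72335496 counts per library. The 9 plasma cell markers, CD38 among them, summed to 9089 to 9122 CPM in the CD38 KO libraries and 7177 to 7188 CPM in the WT libraries. Of these 5 rose, 3 fell and 1 did not pass the test. That is 55.6% higher and 33.3% lower, against 22.8% and 21.6% of all genes tested. Log2 fold changes were 1.048 for JCHAIN, 0.75 for XBP1 and -0.37 for SLAMF7. The labels call the line a B lymphoblast. The B cell genes MS4A1, PAX5 and CD22 had at most 5 counts in a CD38 KO library and at most 2 in a WT library. Counts of CR2, also a B cell marker, were 1252, 1125 and 1213 in the CD38 KO libraries, against 3732, 3213 and 3568 in the WT libraries (log2 fold change -1.40, edgeR adjusted p = 1.95e-13). The 5 T cell markers summed to 5.32 to 5.70 CPM in the CD38 KO libraries and 1.32 to 1.73 CPM in the WT libraries. CD3E had 4.61, 4.64 and 5.25 CPM in the CD38 KO libraries, against 0.892, 1.03 and 1.02 CPM in the WT libraries, and CD3D had 0 or 1 count in each library. The part of these markers in the results above was not tested. The 5 myeloid markers summed to 1.13 to 1.69 CPM in the CD38 KO libraries and 2.25 to 2.96 CPM in the WT libraries, and the 5 fibroblast markers to 5.38 to 6.40 CPM in the CD38 KO libraries and 3.49 to 4.55 CPM in the WT libraries, mostly from PDGFRB.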

How the data were processed

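The deposited table by the authors held raw read counts per gene for the 6 libraries. Partek, DESeq2 and STAR 2.7.9a appear in the submitters' processing notes, with no role given. Per the labels' protocols, cDNA came from 10 ng of RNA by a SMARTer Ultra Low kit. Which build, annotation, counter and strand mode served is not stated by these sources, and overlapping genes or near-identical copies may have shared reads. Repeated lines (200, with the same counts) were dropped. CD38 KO was compared with WT with edgeR 4.0.16 in R 4.3.3 (quasi-likelihood test), using TMM factors, filterByExpr and no covariate, fitted and adjusted over all 20120 genes left. SE is the log2 fold change divided by the square root of F. A change was called at an adjusted p under 0.05.

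Alternatives were RLE, upper-quartile and no scaling factors, no filter, 1 CPM in 3 libraries as the filter, limma-voom (limma 3.58.1), DESeq2 1.42.0, a replicate block, protein-coding genes only, no mitochondrially encoded genes, and each library left out. Exact permutation tests used scipy 1.17.1. Coordinates and exon lengths come from GENCODE 29 through the Ensembl identifier. That release may not be the one counted with. Totals were 61515519 to 72335496 counts, and each factor had at least 390 counts in each library. No 2 libraries agreed within sampling noise (lowest chi-square over degrees of freedom 5.92). On counts simulated for this comparison over 19307 genes, the test recovered 73.5% of 1.5-fold, 90.9% of 2-fold and 100% of 4-fold changes, and 7.85% of its 191 calls were false. At these sizes 68, 66 and 66 genes were changed, all at 1 CPM or more in WT cells. In the data 8934 of 20120 genes were called, so the false share does not carry over. Every factor changed by less than 1.5-fold, a size that was not simulated.

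The factors and lists were chosen with earlier results of these data known. The genes named are the 10 factors, 14 partners, up to 4 members of each related list with the smallest adjusted p, mitochondrially encoded RNAs, overlapping or head-to-head coding genes within 1000 bases, retrocopies, markers and CD38. The ratios other than LRPPRC to SLIRP were chosen after values were seen. GABPB1, GABPB2, PPRC1 and PPARGC1B were also named after values were seen. 1 B cell marker is not reported here.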

Additional observations from a re-analysis of the deposited data

How the results depend on the processing

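Over the 16 alternative fits, TFAM, TFB2M, LRPPRC and POLG kept their direction and passed the test in all 16, with log2 fold changes of -0.36 to -0.23, -0.39 to -0.27, -0.27 to -0.15 and 0.32 to 0.44. POLRMT passed in 13, TEFM in 13 and SSBP1 in 11, as given with each gene, and TFB1M and TWNK in none. Library size alone shifted the median of all genes to -0.08, with 3632 higher and 5570 lower. It moved the median of the factors to -0.25 and left 1 factor higher, POLG. Without single libraries 4 to 7 factors passed, 1 to 2 higher and 3 to 5 lower. The 4 were left without WT replicate 2, where 8190 of 20843 genes passed, and the cause was not tested.

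Of the MTERF genes 1 in place of 2 passed with no filter, upper-quartile factors, the replicate block and without mitochondrially encoded genes, and 1 to 2 without single libraries. With DESeq2 and with protein-coding genes only 3 passed, 2 of them lower. Between 7 and 12 genes of RNA processing passed without single libraries, with 7 without CD38 KO replicate 3. The LRPPRC to SLIRP difference ran between -1.21 and 0.346 without single libraries. The TWNK log2 fold change turned to -0.0618 with library size alone and ran between -0.0742 and 0.11 without single libraries.

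Same-numbered libraries of the groups did not deviate together over all genes tested (r = -0.0207 to 0.0337), and 1 of 3 correlated best with its own number. These correlations showed no pairing by number, but a pairing that touches few genes was not tested. With the replicate block 8918 genes passed, against 8934 without it, and 7 factors in both. TFB1M and TEFM, with 390 to 602 counts per library, had the largest SE of the factors. SUPV3L1 lost its call (edgeR adjusted p = 0.0560), and MTERF4 (0.0130) and GRSF1 (0.0483) gained one, with library size alone. MTERF4 also passed with DESeq2 (adjusted p = 0.0487) and with protein-coding genes only (edgeR adjusted p = 0.0423).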
